A study of Mus musculus with 9 samples.

Results

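The 10 genes Sptlc1, Sptlc2, Kdsr, Degs1, Cers2, Cers4, Cers5, Cers6, Ugcg and Sgms1 encode enzymes that make ceramide or carry it into glucosylceramide and sphingomyelin. They were chosen by name, for their enzymatic roles, from the 21899 genes of the deposited table, with earlier results of these data known. All 10 carry the table's own annotation to the KEGG pathway Sphingolipid metabolism, and all 10 passed the filter on low counts that left 12448 genes for testing.

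The cells were N2a (Neuro-2a, a mouse neuroblastoma line), and RNA was sequenced from 9 libraries in 3 groups of 3. The control cells expressed a short hairpin RNA against luciferase, a gene that mouse cells lack (shlucif). The Arf1-deficient cells expressed 1 of 2 hairpins against Arf1 (shArf1-1 or shArf1-2), a small GTPase that recruits coat proteins to the Golgi. The study's methods name lentiviral hairpin vectors, and the labels record no further treatment of any group. Nothing in the labels says that the libraries of a group came from separate cultures, so p-values measure the spread between these libraries, which may be technical. The sum of counts was between 11182479 and 15594615 per library.

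Ceramide synthesis starts in the endoplasmic reticulum, where serine palmitoyltransferase joins serine to palmitoyl-CoA. The product is reduced to sphinganine, acylated by a ceramide synthase and desaturated to ceramide, which is then glycosylated or given a phosphocholine head group at the Golgi. The ceramide synthases differ in the length of the fatty acid they prefer, and neurons are rich in the gangliosides that descend from glucosylceramide. Messenger RNA was measured here, not enzyme activity or lipid.

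Sequences of both hairpin targets are given because every comparison rests on them. The capitals mark the whole target, read on the strand of the Arf1 transcript.
shArf1-1: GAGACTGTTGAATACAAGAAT
shArf1-2: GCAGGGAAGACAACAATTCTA
The targets are 21 bases long and lie in the coding sequence of Arf1 (GRCm38 chromosome 11, minus strand), from 59213222 to 59213242 for shArf1-1 and from 59213386 to 59213406 for shArf1-2. None of the 64 annotated transcripts of the 10 genes held either target (0 of 64). Outside these genes, the shArf1-1 target also occurs in transcripts of AC127331.2, and the shArf1-2 target in those of AC127331.2 and Gm19587. Arf1 itself averaged 324 ± 6.72 FPKM in the control libraries (counts scaled to gene length and library total, ± SD, n = 3), against 128 ± 1.73 for shArf1-1 and 165 ± 6.92 for shArf1-2. Over both hairpins it fell by 1.21 on the log2 scale (SE 0.09, adjusted p = 6.05e-08 by edgeR's quasi-likelihood test), and it was 0.34 higher on the log2 scale with shArf1-2 than with shArf1-1 (adjusted p = 1.16e-05).

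In Arf1-deficient cells the 10 genes changed in both directions. Sptlc1, a subunit of serine palmitoyltransferase, and Degs1, the desaturase that completes ceramide, rose. Sptlc2, the partner subunit of the same enzyme, Kdsr, the reductase of the next step, Cers4, a ceramide synthase, and Ugcg, which makes glucosylceramide, fell. Cers4 had the largest change among the 10, with its level at 0.486 of that in shlucif. Thus 2 of 10 were higher, against 31.6% of all tested genes, and 4 of 10 were lower, against 32.9%, at an adjusted p under 0.05. These shares are close to those of all tested genes. In either direction, 64.5% of all tested genes were called. The separation of libraries described gene by gene below was not counted over all tested genes, so it marks nothing particular to these 10. The median log2 fold change of the 10 genes was -0.15 beside 0.00 for all tested genes, and the median of its absolute size was 0.34 beside 0.37.

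Marker genes of macrophages also moved with the groups. Of 19 macrophage markers, 16 were tested. None of the 16 had over 10 counts in any Arf1-deficient library. They passed the filter through the shlucif libraries, so the call of all 16 as lower could hardly come out otherwise. Summed levels of the 19 were between 2425 and 2862 CPM (counts scaled to the library total and by TMM factors) in the shlucif libraries. In the Arf1-deficient libraries they were between 1.75 and 2.60 CPM. In every Arf1-deficient library 7 of the 19 were at 0 (Aif1, Itgam, C1qa, C1qb, C1qc, Ctss and Cx3cr1). Among these, Aif1 (2 to 5 counts), Cx3cr1 (1 to 2) and C1qa (0 to 1) were near 0 with shlucif too. Spp1 (19663 to 22641 counts) and Gpnmb (8201 to 10230) had the most counts of the 19 in the shlucif libraries and weigh most in the sum. Of 7 fibroblast markers, 4 were tested and 2 were lower, with sums of 43.8 to 45.2 CPM against 15.7 to 23.0 CPM. Of 12 neuroblastoma markers, 10 were tested, 8 were higher and 1 lower, with sums of 1549 to 1623 CPM against 2308 to 2657 CPM. Their part in the changes of the sphingolipid genes was not tested, and in bulk RNA fewer cells of a type and less RNA per cell cannot be told apart.

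**Figure D1:**
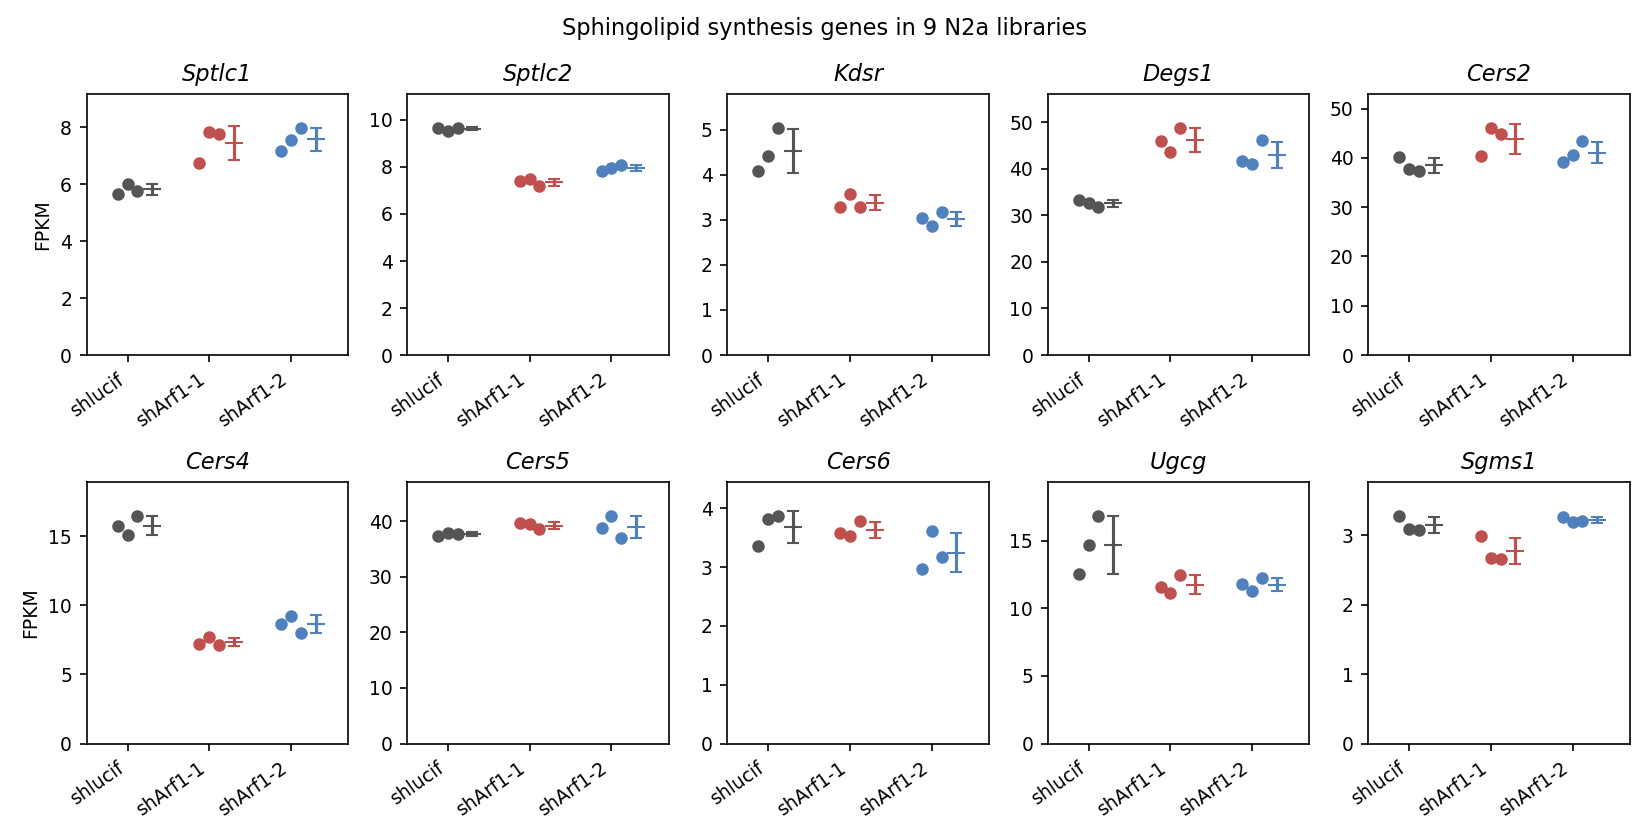
Level of each gene in FPKM (vertical axis, from 0) in the 3 libraries of each group (points, horizontal axis); the crossbar beside them is the mean and the error bar the SD. Cers4, Sptlc2, Kdsr and Ugcg lie lower in all 6 Arf1-deficient libraries than in any shlucif library, and Sptlc1 and Degs1 lie higher. The share of all tested genes that separate in this way was not counted.

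Serine palmitoyltransferase is the entry point of the pathway, and its 2 main subunits moved in opposite directions. Sptlc1 (ENSMUSG00000021468; GRCm38 chromosome 13, minus strand, 53332748 to 53377397) was at 5.65, 6.01 and 5.78 FPKM with shlucif, at 6.74, 7.82 and 7.75 with shArf1-1 and at 7.17, 7.56 and 7.98 with shArf1-2. All 6 Arf1-deficient libraries were above all 3 controls, and the hairpins overlapped. Its log2 fold change was 0.31 (standard error, SE, 0.09, adjusted p = 0.00414 by edgeR's quasi-likelihood test), 0.30 for shArf1-1 and 0.31 for shArf1-2.

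Sptlc2 (ENSMUSG00000021036), which carries the cofactor of the enzyme, lies on chromosome 12 (minus strand, 87305058 to 87388355). It was at 9.67, 9.55 and 9.67 FPKM with shlucif, at 7.39, 7.48 and 7.17 with shArf1-1 and at 7.83, 7.94 and 8.10 with shArf1-2. The groups did not overlap, the control libraries differed among themselves by less than the distance to any Arf1-deficient library, and shArf1-2 lay above shArf1-1 in every library. Sptlc2 fell by 0.39 on the log2 scale (SE 0.06, adjusted p = 1.24e-05), and shArf1-2 minus shArf1-1 was 0.10, which was not past the threshold (adjusted p = 0.359). With shlucif the FPKM of Sptlc2 was 1.66 ± 0.063 times that of Sptlc1 (SD, n = 3). It was 0.993 ± 0.0914 times with shArf1-1 and 1.05 ± 0.0386 times with shArf1-2. In FPKM the ratio thus went from well above 1 to near 1 with both hairpins. Its size depends on gene length. By the longest coding transcript, Sptlc2 was at 11.65 beside 7.93 for Sptlc1 with shlucif. On that scale it was below Sptlc1 with shArf1-1 (8.89 beside 10.15) and with shArf1-2 (9.62 beside 10.33).

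Bases before an annotated start are shown for this pair and for Degs1, the other gene that rose, so that they can be set side by side. They come from RefSeq (GRCm38.p6), are written on the strand of the gene and end where an annotated exon begins. For Degs1 that exon starts a shorter transcript, so the stretch shown lies in the first intron of the longest Degs1 transcript and not before the gene's outermost start. The capitals mark a CCAAT box (CCAAT or ATTGG), a GC box (GGGCGG or CCGCCC) or an E-box (CACGTG).
Sptlc1, chr13:53377398-53377611, minus strand: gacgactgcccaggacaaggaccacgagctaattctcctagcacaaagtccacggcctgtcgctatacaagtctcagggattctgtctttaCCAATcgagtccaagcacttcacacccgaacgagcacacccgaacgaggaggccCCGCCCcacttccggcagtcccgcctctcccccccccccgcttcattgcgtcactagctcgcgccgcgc
Sptlc2, chr12:87388356-87388605, minus strand: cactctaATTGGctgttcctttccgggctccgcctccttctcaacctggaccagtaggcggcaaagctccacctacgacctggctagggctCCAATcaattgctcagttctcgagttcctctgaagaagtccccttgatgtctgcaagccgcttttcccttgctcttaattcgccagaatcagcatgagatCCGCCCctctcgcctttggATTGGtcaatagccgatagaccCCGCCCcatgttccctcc
Degs1, chr1:182282225-182282445, minus strand: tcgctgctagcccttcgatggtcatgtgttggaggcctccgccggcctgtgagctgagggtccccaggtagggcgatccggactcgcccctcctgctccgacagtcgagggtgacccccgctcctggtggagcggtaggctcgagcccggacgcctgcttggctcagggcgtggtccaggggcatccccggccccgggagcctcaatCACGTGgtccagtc
Sptlc1, which rose, and Sptlc2, which fell, both hold CCAAT and GC boxes in these windows, and Degs1 holds an E-box. RefSeq windows (250 bases before to 50 after a start) were found for 10 of 10 genes, with 14 windows in all since Cers2 and Sgms1 have several. On either strand, CCAAT occurred in 5 of the 14 windows (Cers2, Cers6, Sgms1, Sptlc1 and Sptlc2) and in 37.4% of all 32851 windows. GGGCGG occurred in 9 of the 14, from 8 genes (all but Cers6 and Degs1), and in 35.7% of all windows, and CACGTG in 3 of the 14 (Cers2, Cers6 and Degs1) and in 7.15%. The sterol element TCACNCCAC (1.24% of windows), the cyclic AMP element TGACGTCA (1.79%) and the amino acid response element TGATGNAAT (0.965%) were in 0 of the 14. The genes with a CCAAT box thus included one that rose, one that fell and others that did not pass the test.

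Kdsr (ENSMUSG00000009905), on the minus strand of chromosome 1 from 106720459 to 106759727, reduces the first product of the pathway to sphinganine. It was at 4.09, 4.42 and 5.04 FPKM with shlucif, at 3.28, 3.58 and 3.29 with shArf1-1 and at 3.05, 2.85 and 3.16 with shArf1-2. The controls spread more than either hairpin group, but every Arf1-deficient library was below the lowest of them. Kdsr fell by 0.56 on the log2 scale (SE 0.09, adjusted p = 2.14e-05), with log2 fold changes of -0.47 for shArf1-1 and -0.65 for shArf1-2. Although no shArf1-2 library reached the lowest shArf1-1 library, the difference between the hairpins did not pass the test (-0.18, adjusted p = 0.234).

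Degs1 (ENSMUSG00000038633), on the minus strand of the same chromosome from 182275772 to 182282804, introduces the double bond that turns dihydroceramide into ceramide. It was at 33.3, 32.6 and 31.8 FPKM with shlucif, at 46.0, 43.6 and 48.8 with shArf1-1 and at 41.6, 41.1 and 46.2 with shArf1-2. All 6 Arf1-deficient libraries were above the controls, with overlap between the hairpins. Degs1 rose by 0.39 on the log2 scale (SE 0.07, adjusted p = 3.56e-05), with 0.45 for shArf1-1 and 0.33 for shArf1-2. The FPKM of Degs1 was 7.28 ± 0.927 times that of Kdsr with shlucif, 13.7 ± 1.37 times with shArf1-1 and 14.2 ± 0.498 times with shArf1-2 (SD, n = 3).

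**Figure D2:**
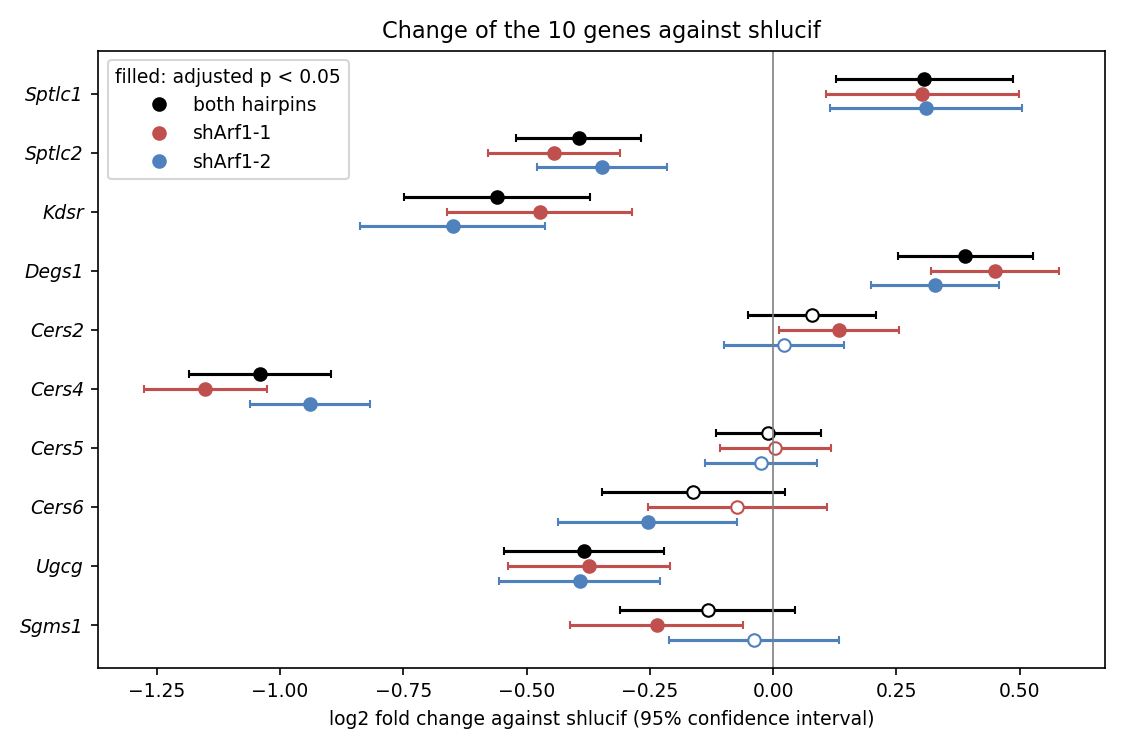
Log2 fold change against shlucif (horizontal axis) of each gene (vertical axis) over both hairpins (black), with shArf1-1 (red) and with shArf1-2 (blue); bars are 95% confidence intervals and filled points passed an adjusted p of 0.05. Cers4 lies farthest from 0 with each hairpin, at -1.15 and -0.94, and the values for Cers5 lie at 0.00 and -0.02.

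Among the ceramide synthases, Cers4 alone passed the test over both hairpins. Cers4 (ENSMUSG00000008206), which prefers long-chain acyl-CoAs, lies on the plus strand of chromosome 8 from 4493026 to 4531680. It was at 15.7, 15.1 and 16.5 FPKM with shlucif, at 7.24, 7.71 and 7.16 with shArf1-1 and at 8.68, 9.25 and 7.99 with shArf1-2. No libraries of any pair of groups overlapped, with shArf1-1 lowest and shArf1-2 between it and the controls. Cers4 fell by 1.04 on the log2 scale (SE 0.07, adjusted p = 1.89e-10 by edgeR's quasi-likelihood test), with log2 fold changes of -1.15 for shArf1-1 and -0.94 for shArf1-2. Of the exonic bases of Cers4, 8.97% overlap antisense genes, and 9.42% of the 50-base words of its longest coding transcript also occur in transcripts of other genes. Reads from that portion could be split or shared, depending on a counting setting not given in the sources used here.

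Cers2 (ENSMUSG00000015714), the synthase for very-long-chain ceramides, on the plus strand of chromosome 3 from 95314791 to 95323599, was at 40.2, 37.8 and 37.4 FPKM with shlucif, at 40.4, 46.1 and 44.9 with shArf1-1 and at 39.2, 40.5 and 43.3 with shArf1-2. In FPKM the shArf1-1 libraries lay just above the highest control, while shArf1-2 overlapped the controls; after TMM scaling both hairpin groups overlapped them. The log2 fold change over both was 0.08 (95% confidence interval -0.05 to 0.21, adjusted p = 0.275). With shArf1-1 alone it was 0.13 (adjusted p = 0.0469), a call that was lost in 10 of 17 alternatives, among them those without shlucif replicate 2 (adjusted p = 0.153), shlucif replicate 3 (0.145), shArf1-1 replicate 2 (0.190), shArf1-1 replicate 3 (0.101) or shArf1-2 replicate 1 (0.0537). In addition, 5.96% of its exonic bases overlap genes on the opposite strand, Setdb1 among them.

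Cers5 (ENSMUSG00000023021), which makes ceramide with palmitate, lies on the minus strand of chromosome 15 from 99734881 to 99772885. It was at 37.2, 37.9 and 37.7 FPKM with shlucif, at 39.6, 39.5 and 38.5 with shArf1-1 and at 38.8, 40.9 and 37.0 with shArf1-2. The log2 fold change after scaling was -0.01 (95% confidence interval -0.12 to 0.10, adjusted p = 0.875), the value closest to 0 among the 10 genes. Cers6 (ENSMUSG00000027035), which shares the preference of Cers5 for palmitate, lies on the plus strand of chromosome 2 from 68861441 to 69114282.

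Cers6 was at 3.37, 3.82 and 3.87 FPKM with shlucif, at 3.57, 3.54 and 3.79 with shArf1-1 and at 2.97, 3.61 and 3.17 with shArf1-2. The libraries overlapped, and the log2 fold change over both hairpins was -0.16 (95% confidence interval -0.35 to 0.02, adjusted p = 0.117). With shArf1-2 it was -0.25 (adjusted p = 0.0135), a call lost in 4 of 17 alternatives, including limma on log2(FPKM + 1) with a value of -0.14 and those without shlucif replicate 3 (adjusted p = 0.0675) or shArf1-2 replicate 1 (0.0934). With shArf1-1 it was -0.07 (adjusted p = 0.482), and the difference between the hairpins did not pass the test (-0.18, adjusted p = 0.185).

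Summed over these 4 synthases, the level was 95.5 ± 0.987 FPKM with shlucif, 94.0 ± 3.02 FPKM with shArf1-1 and 91.8 ± 2.34 FPKM with shArf1-2 (SD, n = 3). Cers4 made up 16.5 ± 0.68% of that sum with shlucif, 7.84 ± 0.214% with shArf1-1 and 9.41 ± 0.591% with shArf1-2. Cers2 made up 40.3 ± 1.29%, 46.6 ± 1.78% and 44.7 ± 2.35%, and Cers5 39.4 ± 0.782%, 41.7 ± 1.61% and 42.4 ± 1.67%, in the same order of groups (SD, n = 3). Cers6 stayed the smallest of these 4, between 3.54% and 3.87% by group. Left out of this sum are Cers1, at 4.02, 4.72 and 4.89 FPKM, and Cers3, at 0.32, 0.40 and 0.36 FPKM, in the same order of groups. The summed levels with shArf1-1 overlapped those with shlucif, and those with shArf1-2 (89.6 to 94.3 FPKM) lay below the lowest control (94.6 FPKM). This overlap holds for FPKM only, which is scaled by the library total, and the sums were not taken after TMM scaling. Scaling by total count put the median log2 fold change of all tested genes at 0.07, against 0.00 with TMM. The ratio of Cers2 to Cers4 was 2.45 ± 0.153 with shlucif, 5.95 ± 0.341 with shArf1-1 and 4.77 ± 0.568 with shArf1-2. The shares depend on gene length. With the longest coding transcript in place of the listed length, an alternative added after the data were seen, Cers4 went from 14.9% to 6.97% and 8.41%, and Cers2 from 46.6% to 53.1% and 51.2%.

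**Figure D3:**
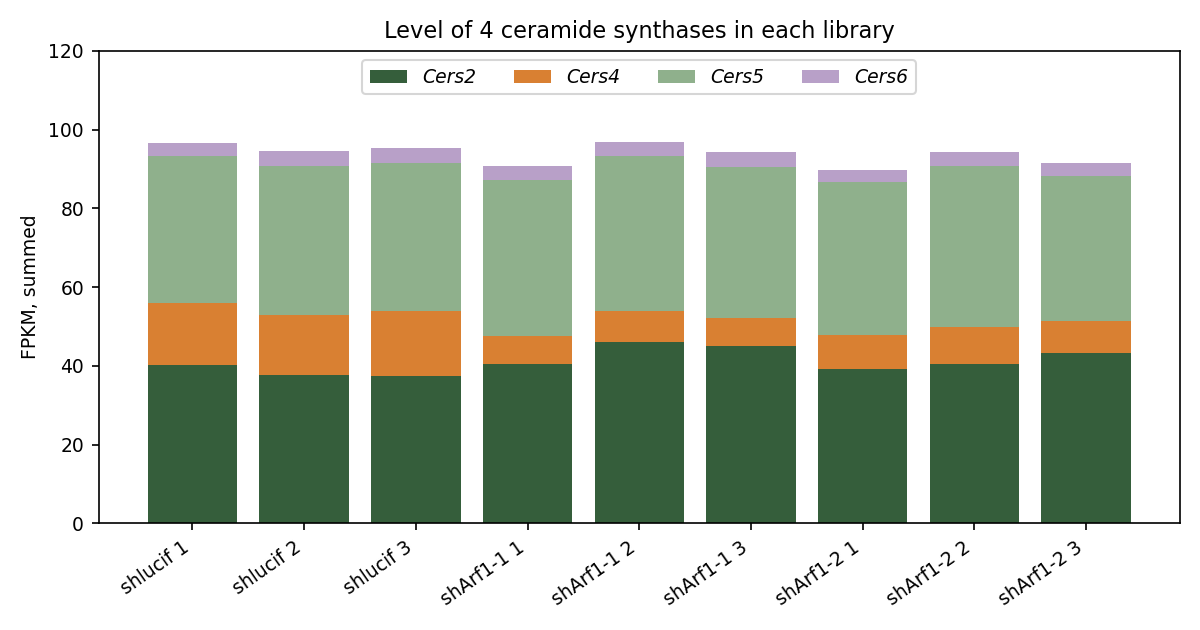
Summed FPKM (vertical axis, from 0) of the ceramide synthases Cers2, Cers4, Cers5 and Cers6 in each of the 9 libraries (bars). The Cers4 band is between 15.1 and 16.5 FPKM in the shlucif bars and between 7.16 and 9.25 FPKM in the others.

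Of the enzymes that consume ceramide, Ugcg (ENSMUSG00000028381), the glucosylceramide synthase that opens the route to gangliosides, lies on the plus strand of chromosome 4 from 59189257 to 59222833. It was at 12.6, 14.7 and 16.8 FPKM with shlucif, at 11.6, 11.2 and 12.5 with shArf1-1 and at 11.8, 11.2 and 12.2 with shArf1-2. The controls spread widely, and the lowest of them was just above the highest Arf1-deficient library. Ugcg fell by 0.38 on the log2 scale (SE 0.08, adjusted p = 0.000247), with log2 fold changes of -0.37 for shArf1-1 and -0.39 for shArf1-2.

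Sgms1 (ENSMUSG00000040451), a Golgi sphingomyelin synthase, is encoded on chromosome 19 (minus strand, 32122727 to 32389714). It was at 3.27, 3.08 and 3.07 FPKM with shlucif, at 2.98, 2.67 and 2.66 with shArf1-1 and at 3.26, 3.18 and 3.20 with shArf1-2. All shArf1-1 libraries were below both other groups, while shArf1-2 overlapped the controls. The log2 fold change was -0.13 over both (95% confidence interval -0.31 to 0.05, adjusted p = 0.179) and -0.24 with shArf1-1 (adjusted p = 0.0162). This call was lost in 4 of 17 alternatives, including limma on log2(FPKM + 1) with a value of -0.14 and those without shlucif replicate 1 (adjusted p = 0.0680) or shArf1-1 replicate 3 (0.0650), and the difference between the hairpins did not pass the test (0.20, adjusted p = 0.126).

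Each hairpin was also compared with shlucif by itself, and both comparisons share the same 3 control libraries. With shArf1-1, 3 of 10 genes were higher (Sptlc1, Degs1 and Cers2) beside 33.1% of all tested genes, and 5 were lower (Sptlc2, Kdsr, Cers4, Ugcg and Sgms1) beside 34.4%. With shArf1-2, 2 were higher (Sptlc1 and Degs1) beside 30.9%, and 5 were lower (Sptlc2, Kdsr, Cers4, Cers6 and Ugcg) beside 32.6%. With a further limit of 0.5 on the size of the log2 fold change, over both hairpins, 0 of 10 were higher beside 15.4% (the largest rise was 0.39), and Kdsr and Cers4 were lower, 2 of 10 beside 19.3%.

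Directly between the hairpins, 1 of 10 genes was higher with shArf1-2 beside 6.98% of all tested genes, and 0 were lower beside 7.46% by edgeR's quasi-likelihood test (0 also at an unadjusted p under 0.05, and 0 by DESeq2). That gene was Cers4, which was 0.21 higher on the log2 scale with shArf1-2 than with shArf1-1 (95% confidence interval 0.09 to 0.34, adjusted p = 0.0179). The adjusted p was 0.0763 without shArf1-1 replicate 1, 0.0627 without shArf1-1 replicate 3, 0.0665 without shArf1-2 replicate 1 and 0.124 without shArf1-2 replicate 2. Arf1 was also higher with shArf1-2 in these libraries, and a link between the levels of Arf1 and Cers4 was not tested.

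By listed gene length, the order of the levels changed with Cers4 and Degs1. With shlucif, Cers2 and Cers5 were highest with overlapping ranges, followed by Degs1, by Cers4 and Ugcg with overlapping ranges, and by Sptlc2, Sptlc1, Kdsr, Cers6 and Sgms1, each apart from the next. With shArf1-1, Degs1 and Cers2 overlapped at the top, Cers5 and Ugcg followed, and Sptlc1, Cers4 and Sptlc2 overlapped one another in turn. With shArf1-2, Degs1, Cers2 and Cers5 overlapped in turn at the top, Ugcg followed, and Cers4, Sptlc2 and Sptlc1 overlapped in turn. Kdsr came last with shArf1-2, behind Sgms1 and Cers6. These ranks depend on gene length, and for Sgms1 the listed length was 2.61 times that of its longest coding transcript. By the shorter length Sgms1 was at 8.21 ± 0.295 with shlucif, above Kdsr at 6.67 ± 0.716 on the same scale. On that scale Cers2 had the highest mean in each group. It was at 63.8 ± 2.58 with shlucif, beside 48.0 ± 0.461 for Cers5. With shArf1-1 it was at 72.7 ± 4.96 beside 58.4 ± 3.32 for Degs1, and with shArf1-2 at 68.0 ± 3.5 beside 54.4 ± 3.59. Cers6 (4.10 ± 0.409) rather than Kdsr (4.46 ± 0.232) then had the lowest mean with shArf1-2.

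The rest of the pathway was described by lists of genes by role, whose counts can be set beside the 31.6% of all tested genes that were higher and the 32.9% that were lower. Partners and regulators of the synthesis steps mostly did not pass the test, with 1 of 7 tested genes higher, 1 lower and a median log2 fold change of 0.04. Sptssa, a small subunit that activates serine palmitoyltransferase, rose from 15.6 ± 0.608 FPKM with shlucif to 19.3 ± 1.98 with shArf1-1 and 19.3 ± 0.637 with shArf1-2 (log2 fold change 0.25, adjusted p = 0.0146, or 0.0717 without shlucif replicate 3, which leaves 0 genes of this list higher). Fa2h, which hydroxylates the fatty acid of ceramide, fell from 2.15 ± 0.115 to 0.535 ± 0.135 and 1.14 ± 0.434 FPKM (SD, n = 3; log2 fold change -1.42, adjusted p = 0.000366, and -0.81 by limma on log2(FPKM + 1)). Sptlc3 and Sptssb, alternative subunits of the first enzyme, had 0 counts in all 9 libraries.

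Among the enzymes and carriers that use ceramide or its products, 3 of 11 tested genes were higher and 6 lower, with a median of -0.31. Sgms2, the sphingomyelin synthase related to Sgms1, fell from 5.15 ± 0.424 FPKM to 2.73 ± 0.282 with shArf1-1 and 2.13 ± 0.336 with shArf1-2 (log2 fold change -1.15, adjusted p = 1.52e-07). B4galnt1, which makes the complex gangliosides, fell from 3.01 ± 0.307 to 0.668 ± 0.186 and 1.12 ± 0.204 FPKM (log2 fold change -1.80, adjusted p = 4.84e-07, and -1.10 by limma on log2(FPKM + 1)). B4galt6, a lactosylceramide synthase, rose by 0.49 on the log2 scale (adjusted p = 3.70e-05), and Plekha8, which carries glucosylceramide to the trans-Golgi, by 0.29 (adjusted p = 0.00527, or 0.19 with an adjusted p of 0.0697 without shlucif replicate 3). B4galt5, the other lactosylceramide synthase, was named after its values were seen. It was more abundant than B4galt6 and fell from 40.2 ± 1.3 FPKM to 26.9 ± 1.79 and 30.7 ± 0.601 (log2 fold change -0.55, adjusted p = 3.05e-07), so the lactosylceramide synthases moved in opposite directions.

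Of the genes of sphingosine 1-phosphate, the phosphorylated end product of ceramide breakdown, 2 of 7 tested were higher and 3 lower (median -0.01). Sgpp1, a phosphatase that returns it to sphingosine, rose by 0.63 on the log2 scale (adjusted p = 8.73e-06), and Sphk2, a sphingosine kinase, by 0.27 (adjusted p = 0.0117, or 0.0664 without shlucif replicate 3, which leaves 1 of 7 higher). Sgpl1, the lyase that ends the pathway, fell from 38.9 ± 1.78 FPKM to 27.3 ± 0.907 and 23.0 ± 0.799 (log2 fold change -0.69, adjusted p = 1.80e-07). Spns2, an exporter, had a log2 fold change of -1.47 (adjusted p = 6.29e-05) at under 1 FPKM in each group, and of -0.44 by limma on log2(FPKM + 1).

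Breakdown genes were counted by compartment, and the difference between the compartments was not tested. In the lysosome, 10 of 12 tested genes were lower and 1 higher, with a median of -0.89. The part of the lower macrophage markers in this list, as in the others, was not tested. Neu1, a sialidase, fell from 14.1 ± 0.407 FPKM to 7.16 ± 0.433 with shArf1-1 and 6.89 ± 0.272 with shArf1-2, by 1.07 on the log2 scale (adjusted p = 2.81e-10). Galc, the galactosylceramidase, was the gene called higher (0.25, adjusted p = 0.0326), a call lost in 6 of 18 alternatives, among them those without shlucif replicate 1 (adjusted p = 0.134), shlucif replicate 3 (0.0911), shArf1-1 replicate 1 (0.0668) or shArf1-1 replicate 3 (0.0571), which leave 0 higher. Outside the lysosome, 2 of 7 tested genes were higher, namely Smpd4 (0.52, adjusted p = 4.32e-06) and Smpd3 (0.36, adjusted p = 1.80e-05), both neutral sphingomyelinases. Smpd2, of the same class, fell by 0.37 on the log2 scale (adjusted p = 0.00253), and the list's median was 0.36. That median leans on Acer2 (0.55) and Smpd5 (0.39), which had at most 22 counts in any library and did not pass the test. Acer3 (-0.17) and Gba2 (-0.01) did not pass it either, so the list did not move as a group.

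For the enzymes that lengthen the acyl chains used by the ceramide synthases, 3 of 11 tested genes were higher and 4 lower, with a median of 0.04. Elovl6, which extends palmitate to stearate, rose from 6.36 ± 0.144 FPKM to 13.1 ± 1.09 with shArf1-1 and 12.6 ± 0.238 with shArf1-2 (log2 fold change 0.95, adjusted p = 5.12e-10). Hacd3, a dehydratase of the elongation cycle, rose by 0.61 on the log2 scale (adjusted p = 6.80e-08). Elovl7 fell by 0.60 (adjusted p = 3.22e-05) and Elovl5, which extends polyunsaturated fatty acids, by 0.33 on the same scale (adjusted p = 1.37e-05).

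**Figure D4:**
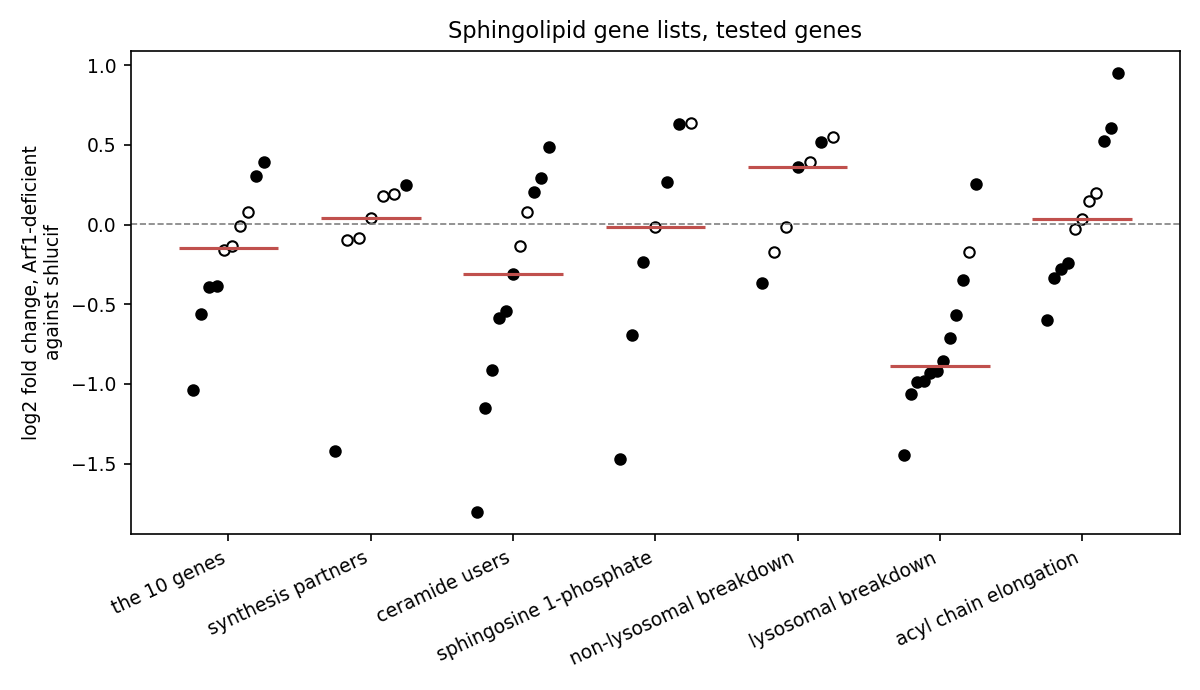
Log2 fold change in Arf1-deficient against shlucif libraries (vertical axis) of the tested genes of each list (horizontal axis); filled points passed an adjusted p of 0.05, red lines are list medians and the dashed line is the median of all tested genes. The 12 lysosomal genes have a median of -0.89, while the 10 synthesis genes have a median of -0.15.

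Of the 40 further genes that the deposited table annotates to Sphingolipid metabolism, which include many of those above, 29 were tested, and 7 were higher, 14 lower and 8 not past the test (median -0.17).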

How the data were processed

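RNA-seq was analysed from 9 libraries of poly(A) RNA. The authors deposited 1 table with an unnormalized read count and an FPKM value per gene and library, and the deposited FPKM was equal to the count divided by the listed length and the library total within 1.89e-05%. Columns with the stem shArf2 were read as shArf1-2. The aligner, counter, strand setting and annotation are not given in the sources used here, and the submitters' processing notes name mm10. The table also holds pathway annotation, and 8 lines with overflow of that text were left out. Coordinates are those of GENCODE M21 (GRCm38) by gene identifier, since the table's coordinates differ from them.

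Counts were tested with edgeR 4.0.16 (R 4.3.3) after filterByExpr and TMM, using glmQLFit with robust estimation and glmQLFTest. The 6 Arf1-deficient libraries were compared with 3 shlucif libraries, and a fit of 3 groups gave each hairpin and their difference. P-values were adjusted by Benjamini-Hochberg over all 12448 tested genes, with a threshold of 0.05. Intervals are 95% confidence intervals. Totals of 11182479 to 15594615 counts set the precision.

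The members and gene lists were chosen with earlier results of these data known. Named are the 10 genes, Arf1 and, per sphingolipid list, up to 2 genes with the largest rise and 2 with the largest fall past the threshold and over 3 counts in every library. Acer2, Acer3, Gba2, Smpd5, Cers1, Cers3, Spp1 and Gpnmb were named outside this rule, after their values were seen. One gene chosen by this rule is counted but not reported here. Alternatives were DESeq2 1.42.0, limma 3.58.1 on log2(FPKM + 1), other scalings and filters, a replicate block, averaged hairpin contrasts and leaving out each library. The test was checked on simulated counts.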

Additional observations from a re-analysis of the deposited data

Results flagged for a closer look

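Cers4 differed between the hairpins in its change against shlucif. Its level was 0.21 higher on the log2 scale with shArf1-2 than with shArf1-1 (adjusted p = 0.0179 by edgeR's quasi-likelihood test), with means of 8.64 ± 0.634 and 7.37 ± 0.295 FPKM (SD, n = 3) and no overlap between their libraries. Over 17 alternatives the difference ranged from 0.17 to 0.26, and 5 of them left it short of the threshold.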

How the results depend on the processing

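Over 18 alternatives, the 6 genes called in Arf1-deficient cells (Sptlc1, Degs1, Sptlc2, Kdsr, Cers4 and Ugcg) kept their direction and their call. Cers2 gained a call when libraries were scaled by total count (0.14, adjusted p = 0.0445), which moved the median of all genes to 0.07. Between the hairpins, the count of genes higher with shArf1-2 was 0 by limma on log2(FPKM + 1) and ranged from 0 to 1 when single libraries were left out. Same-numbered libraries of different groups did not deviate together (correlation -0.08 to 0.09 over 9 pairs, and 4 of 9 libraries were closest to their own number), so the numbers were not taken as pairs. With a replicate block, 2 genes were higher and 4 lower, 7808 of all genes were called, the value for Cers2 with shArf1-1 (0.13) had an adjusted p of 0.0540, and Galc (0.25) had one of 0.0514. By limma on log2(FPKM + 1), 5 elongation genes were higher in place of 3. Galc was also short of the threshold by DESeq2 (adjusted p = 0.0506). Levels of genes relative to one another depend on the listed lengths, and genes at a few FPKM rest on the fewest counts (277 to 560 for Sptlc1, Kdsr, Cers6 and Sgms1 with shlucif).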
